A study of Saccharomyces cerevisiae with 12 samples.

Results

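Protein synthesis in the yeast cytosol depends on a set of factors that start, extend and end each polypeptide, and on the aminoacyl-tRNA synthetases that load each transfer RNA with its amino acid. The 54 genes described here encode such proteins in Saccharomyces cerevisiae. They were chosen by name, but with earlier results of these data known. They comprise 26 initiation factors, 8 elongation factors, 2 termination factors and 18 subunits of cytosolic synthetases. Of the 54 genes, 52 had a probe set of their own among the 5449 S. cerevisiae genes measured. The exceptions were TIF1 and EFT1, which encode the same proteins as TIF2 (the helicase eIF4A) and EFT2 (the elongation factor eEF2). The probe sets of TIF2 and EFT2 are of a type whose probes are shared between transcripts, so each of their values may hold the signal of both copies.

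In initiation, eIF2 brings the initiator tRNA to the small ribosomal subunit, eIF3 and eIF1 help the subunit to scan, and the eIF4 factors bring the capped mRNA to it. eIF2B recharges eIF2 with GTP and is the step that starvation kinases restrain. Genes for this machinery belong to the growth-related expression programme of yeast, whose transcripts are abundant in dividing cells and decline when nutrients run out.

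The strain CENPK 113-7D was grown in SD medium with 2% glucose and followed with Affymetrix arrays at 4 times, with 3 arrays each: logarithmic growth (log phase) and days 2, 6 and 10. No group carried another allele or agent, and the sample labels count the days in stationary phase whereas the series description counts them in cultivation. Nothing in the labels ties replicate arrays to separate cultures; p-values thus reflect only how these samples varied, which may be technical variation. RNA was extracted from whole pellets, so fewer cells that hold a transcript and less transcript per cell cannot be told apart.

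Values are log2 signals as the authors deposited them, and differences are log2 differences from the limma fit with their standard error (SE), n = 3 arrays per time. A gene was called when its adjusted p in limma was under 0.05. The deposited signals ran from 5.11 to 13.79, so the scale has a floor towards which differences of dim genes are compressed, and signals of different probe sets are not compared with each other. The same arrays carry probe sets for another yeast species, whose 95th percentile served as background, and no member lay below it at any time. Each difference is relative to the other genes of the array. Centring each array on its hybridisation controls, which are bacterial and phage transcripts added before hybridisation, shifted the whole table. The median gene of day 2 was then at -0.44 from log phase, that of day 6 at -1.19 and that of day 10 at -0.98. Without the control bioB these medians were -0.07, -0.85 and -0.65, so most of the day 2 shift rested on bioB. Between the later times, the median gene moved by -0.75 from day 2 to day 6, by 0.20 from day 6 to day 10 and by -0.52 over both intervals. Where the direction of a named gene against log phase turned under that centring, the value is given beside it.

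RNA integrity also differed between the times, measured over 8 control genes as the excess of the probe sets at the 3' end over those at the 5' end. Log phase had 1.25 ± 0.07 (SD, n = 3 here and for the other times). Day 2 had 0.86 ± 0.24, day 6 had 1.65 ± 0.05, and day 10 had 1.28 ± 0.07. One day 2 array stood apart with 1.13, against 0.75 and 0.69 on the other two. In this measure the arrays of day 2 and of day 6 overlapped with no other time, whereas log phase and day 10 overlapped. In contrasts with day 2 or day 6, a fit with this covariate thus cannot fully separate RNA integrity from time. It extrapolates from the spread within times, which was widest on day 2. The gap between the hybridisation controls bioB and bioC was -2.17 ± 0.08 in log phase and between -0.89 and -0.79 at the later times. The part of these differences in the results was not tested beyond the alternatives given below.

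Most members were lower after growth than during it, were lowest on day 6 and rose again by day 10. On day 2, 44 of the 52 measured members were lower than in log phase, 3 were higher and 5 were not called. Among all genes 41.5% were lower and 39.0% higher. The median member was at -0.63, against -0.02 for all genes. Without the day 2 array that stood apart, 42 members were lower and 3 higher.

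On day 6, 49 members were lower than in log phase, 2 were higher and only ALA1 was not called, while 41.1% of all genes were lower and 41.6% higher. The median member was at -1.06 and the median gene at 0.00. A decrease of more than 1 on the log2 scale was found for 10 members on day 2, 32 on day 6 and 6 on day 10. Among all 5449 genes it was found for 585, 736 and 461. By day 10, 39 members were lower than in log phase and 7 higher, at a median of -0.32. All genes had 39.8% lower and 39.5% higher, with a median of -0.01. Under centring on the hybridisation controls the members called lower were 47, 51 and 51 on days 2, 6 and 10, and none was called higher. That centring shifted the whole table: of all 5449 genes, 3037, 4555 and 4424 were then called lower and 903, 356 and 381 higher.

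Array by array, the median member stood -0.54, -0.61 and -0.68 from the log phase mean on day 2. It stood at -1.11, -1.10 and -1.03 on day 6 and at -0.29, -0.42 and -0.30 on day 10. The 3 times after growth did not overlap in this median. All 52 members differed among the 4 times by the moderated F test of limma, as did 95.5% of all genes. Likewise all 52 differed among days 2, 6 and 10, as did 85.0% of all genes.

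**Figure D1:**
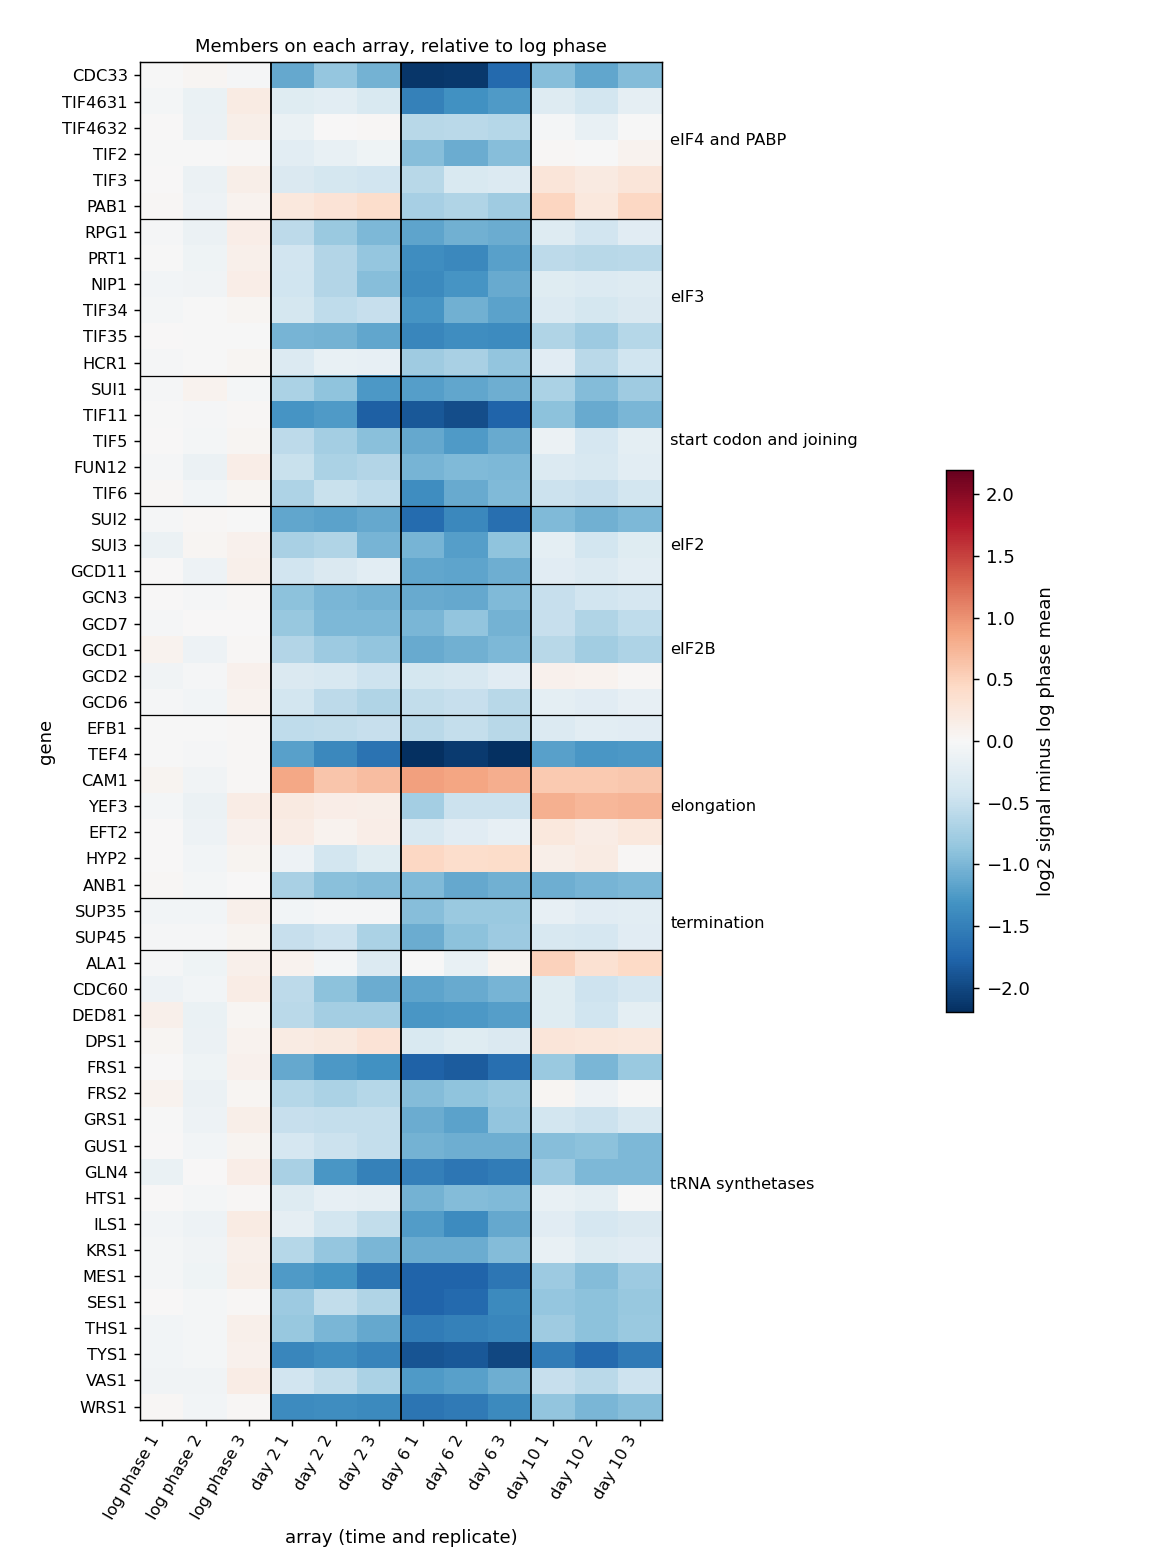
Each row is 1 of the 52 measured members and each column 1 of the 12 arrays, with colour giving the log2 signal minus the member's log phase mean (blue lower, red higher); rows are grouped by role. Most rows are darkest blue in the 3 day 6 columns, while CAM1 is red in all columns after log phase on this deposited scale. Under the hybridisation controls its values were 0.29, -0.33 and -0.38, and without bioB 0.66, 0.0043 and -0.058.

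The eIF4 factors and the poly(A)-binding protein assemble on the cap and the tail of an mRNA. On day 2, 4 of the 6 measured were lower, 1 was higher and 1 was not called (median -0.22). All 6 were lower on day 6 (median -0.86). On day 10, 2 were lower, 2 higher and 2 not called (median -0.02).

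CDC33, which encodes the cap-binding protein eIF4E, changed most in this group. Its signals were 10.80, 10.85 and 10.78 in log phase, 9.69, 9.96 and 9.77 on day 2, 8.67, 8.68 and 9.10 on day 6, and 9.87, 9.66 and 9.85 on day 10. Every later array lay below log phase, every day 6 array lay below those of the other times, and days 2 and 10 overlapped. The change from log phase was -1.00 on day 2, -1.99 on day 6 (SE 0.11, limma adjusted p = 9.7e-10, 3.97-fold lower) and -1.01 on day 10.

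PAB1, which encodes the poly(A)-binding protein, took a different course. It gave 10.42, 10.29 and 10.47 in log phase, 10.62, 10.70 and 10.79 on day 2, 9.66, 9.73 and 9.61 on day 6, and 10.86, 10.62 and 10.85 on day 10. The day 6 arrays were below all others, and those of days 2 and 10 were above log phase. The changes were 0.31 (SE 0.08, limma adjusted p = 0.0021) on day 2, -0.73 on day 6 and 0.38 on day 10, of which the first and last became -0.11 (not called) and -0.59 under centring on the hybridisation controls. Without bioB the day 2 and day 10 values were 0.26 and -0.26, neither called. TIF2 was at -0.16, -0.99 and 0.03 on days 2, 6 and 10. TIF3, which encodes eIF4B, was at -0.38, -0.41 and 0.25. The day 10 values of TIF2 and TIF3 turned to -0.94 and -0.72 under centring on all hybridisation controls, and the TIF2 value of 0.03 was not called.

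eIF3 is the large complex that holds the scanning subunit together. Its 6 subunits fell together at all 3 later times, with medians of -0.66, -1.22 and -0.38. On day 6 the changes were -1.10 for RPG1 (subunit a), -1.33 for PRT1 (b), -1.27 for NIP1 (c), -1.39 for TIF35 (g), -1.17 for TIF34 (i) and -0.79 for HCR1 (j), so that 5 of the 6 were below -1.

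TIF35 had the largest change of the subunits at each time. It read 10.50, 10.49 and 10.48 in log phase, 9.46, 9.46 and 9.35 on day 2, 9.05, 9.12 and 9.11 on day 6, and 9.84, 9.70 and 9.87 on day 10. None of its 4 times overlapped with another. It fell by 1.07 on day 2, 1.39 on day 6 and 0.69 on day 10 (SE 0.06, limma adjusted p at most 1.1e-07). HCR1, a loosely bound subunit that also acts in termination, stood lower on day 10 than on day 2 (-0.22, limma adjusted p = 0.026). RPG1, NIP1 and TIF35 stood higher on day 10 than on day 2, by 0.47, 0.38 and 0.38, while under centring on the hybridisation controls 3 of the 6 subunits were called lower and none higher.

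Start codon selection and subunit joining were represented by 5 genes, and all 5 were lower at each later time (medians -0.74, -1.15 and -0.46). TIF11, which encodes eIF1A, was the lowest of all members on day 2. Its log phase signals were 10.87, 10.87 and 10.91. They were 9.58, 9.63 and 9.08 on day 2, 9.02, 8.94 and 9.11 on day 6, and 9.98, 9.77 and 9.88 on day 10. Days 2 and 6 overlapped through 1 low day 2 array, and the other times were apart.

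The decrease of TIF11 was 1.45 on day 2 (SE 0.12, limma adjusted p = 5.9e-08). It was -1.86 on day 6 and -1.01 on day 10. SUI1, which encodes eIF1, was at -0.94, -1.15 and -0.81. It rose by 0.34 from day 6 to day 10. TIF5 (eIF5, which makes eIF2 hydrolyse its GTP) was at -0.74, -1.16 and -0.24 and regained 0.92 in the same interval. FUN12 (eIF5B) and TIF6 (eIF6, which keeps the large subunit apart) were at -0.99 and -1.14 on day 6.

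eIF2 has 3 subunits, and all 3 were lower at each later time, with medians of -0.80, -1.12 and -0.29. SUI2 encodes the alpha subunit, the one phosphorylated by the kinase Gcn2. It gave 9.99, 10.05 and 10.02 in log phase, 8.88, 8.84 and 8.89 on day 2, 8.33, 8.61 and 8.36 on day 6, and 9.04, 8.96 and 9.04 on day 10. No times overlapped. Its changes were -1.15, -1.59 and -1.01 (SE 0.07, limma adjusted p at most 1.5e-08). On day 10 the beta subunit gene SUI3 was at -0.29 and the gamma subunit gene GCD11 at -0.26.

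The 5 subunit genes of eIF2B fell between log phase and day 2, changed little to day 6 and rose to day 10. All 5 were lower on days 2 and 6, at medians of -0.77 and -0.97, and 4 of 5 on day 10 (median -0.43). Between days 2 and 6 only GCD1 was called lower (-0.28, SE 0.07, limma adjusted p = 0.0032), and the other 4 ranged from -0.09 to 0.05. From day 6 to day 10 all 5 were called higher, by between 0.34 and 0.63. Under centring on the hybridisation controls all 5 were called lower from day 2 to day 6.

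GCN3, which encodes the regulatory alpha subunit, had signals of 8.69, 8.66 and 8.70 in log phase, 7.79, 7.68 and 7.64 on day 2, 7.58, 7.56 and 7.70 on day 6, and 8.17, 8.25 and 8.32 on day 10. Days 2 and 6 overlapped, and day 10 lay between them and log phase. GCD1, the gamma subunit gene, changed most on day 10 in this complex. Its signals were 8.44, 8.26 and 8.39, then 7.71, 7.56 and 7.50, then 7.25, 7.31 and 7.37, and on day 10 7.75, 7.60 and 7.69. Its day 6 arrays were below all others, and days 2 and 10 overlapped. GCD2, the delta subunit gene, was the only one not called against log phase on day 10 (0.06), a value that became -0.91 under centring on the hybridisation controls.

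**Figure D2:**
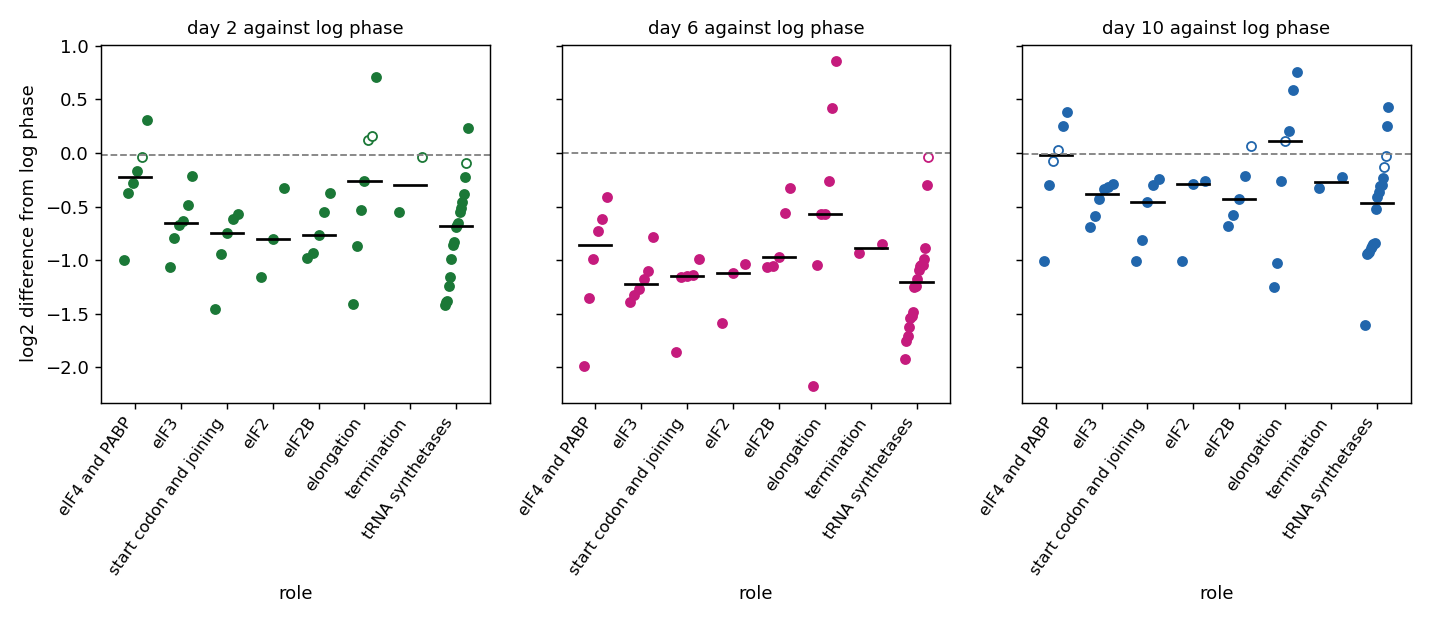
Points give the log2 difference from log phase of the 52 measured members by role, 1 panel each for days 2, 6 and 10; filled points were called in limma, open points were not, bars are role medians and the dashed line is the median of all genes. On day 6 all points of the initiation groups lie below the dashed line, and CAM1 and HYP2 are the 2 filled points above it on the deposited scale. Under the hybridisation controls CAM1 and HYP2 are at -0.33 and -0.77, and without bioB at 0.0043 and -0.44.

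Elongation factors had the widest range of changes of the roles on day 6, from -2.18 to 0.86. Of 7 measured, 4 were lower on day 2 and 1 higher, 5 were lower on day 6 and 2 higher, and 3 were lower on day 10 and 3 higher. Their medians were -0.26, -0.57 and 0.11, and on day 10 the hybridisation-control centring gave 6 lower and none higher. Quantile normalization also moved the medians, to -0.01, -0.18 and 0.40.

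The gamma subunit of eEF1B, the exchange factor of eEF1A, is encoded by the paralogues TEF4 and CAM1, which went in opposite directions. TEF4 gave 10.76, 10.74 and 10.80 in log phase, 9.57, 9.36 and 9.15 on day 2, 8.54, 8.66 and 8.57 on day 6, and 9.57, 9.48 and 9.50 on day 10. CAM1 gave 9.36, 9.22 and 9.33, then 10.15, 9.91 and 9.98, then 10.20, 10.17 and 10.11, and on day 10 9.88, 9.88 and 9.89. All log phase arrays of TEF4 lay above its later arrays, and all log phase arrays of CAM1 lay below its later ones.

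TEF4 changed by -1.41, -2.18 and -1.25 on days 2, 6 and 10 (SE 0.08, limma adjusted p at most 1.3e-08). The day 6 value, 4.53-fold lower, was the largest decrease among the members. CAM1 changed by 0.71, 0.86 and 0.58 (SE 0.07, limma adjusted p at most 2.3e-06), which became 0.29, -0.33 and -0.38 under centring on the hybridisation controls, of which only the last was called. Without bioB they were 0.66, 0.0043 and -0.058, of which only the day 2 value was called. The difference TEF4 minus CAM1 on each array does not depend on any constant added to the log2 values of an array. From its log phase mean it moved by -2.12 ± 0.15, -3.04 ± 0.08 and -1.84 ± 0.05 on days 2, 6 and 10 (SD, n = 3). An exact permutation test over the 15400 partitions of the 12 arrays gave p = 6.49e-05, the smallest it can give (two-sided, adjusted p = 9.74e-05 over the 3 pairs tested). Under quantile normalization, which shifts genes unequally, the 3 differences were -2.03, -3.02 and -1.76.

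eIF5A, which helps ribosomes past difficult peptide bonds, is encoded by HYP2 and its paralogue ANB1, the latter known as a gene of oxygen-poor growth. HYP2 gave 11.71, 11.63 and 11.75 in log phase, 11.59, 11.30 and 11.42 on day 2, 12.16, 12.08 and 12.10 on day 6, and 11.83, 11.87 and 11.73 on day 10. It was the only member whose day 6 arrays lay above all other arrays, which held for 791 of all 5449 genes. ANB1 gave 7.31, 7.23 and 7.29, then 6.56, 6.35 and 6.32, then 6.31, 6.16 and 6.22, and on day 10 6.21, 6.25 and 6.29. All its later arrays lay below log phase and close to the floor of the scale, so its decrease may be understated.

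HYP2 was at -0.26 on day 2 and 0.42 on day 6 (SE 0.07, limma adjusted p = 0.00011), the latter becoming -0.77 under centring on the hybridisation controls and 0.22 (adjusted p = 0.052) with RNA integrity as a covariate. Its day 2 value was not called with that covariate (-0.059, adjusted p = 0.60) or under quantile normalization (-0.0053, adjusted p = 0.94), which gave 0.66 on day 6. On day 10 it was at 0.11 and not called, a value that was 0.40 and called under quantile normalization and -0.86 and called under the hybridisation controls. ANB1 was at -0.87, -1.05 and -1.03. HYP2 minus ANB1 rose from its log phase mean by 0.61 ± 0.08, 1.47 ± 0.04 and 1.14 ± 0.11 (SD, n = 3), with the same exact permutation p of 6.49e-05 and adjusted p of 9.74e-05. These changes were 0.96, 1.81 and 1.56 under quantile normalization.

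The third pair encodes eIF4G, the scaffold that joins eIF4E, eIF4A and the poly(A)-binding protein. TIF4631 gave 8.82, 8.71 and 9.05 in log phase, 8.59, 8.63 and 8.52 on day 2, 7.37, 7.52 and 7.61 on day 6, and 8.58, 8.45 and 8.66 on day 10. TIF4632 gave 7.88, 7.74 and 8.00, then 7.73, 7.88 and 7.90, then 7.27, 7.28 and 7.25, and on day 10 7.84, 7.71 and 7.87. Both were lowest on day 6, and the other times of TIF4632 overlapped.

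On day 6, TIF4631 had fallen by 1.36 (SE 0.09) and TIF4632 by 0.61 (SE 0.07), with limma adjusted p of 6.2e-09 and 3.2e-06. The difference TIF4631 minus TIF4632 moved by -0.24 ± 0.12, -0.75 ± 0.13 and -0.23 ± 0.03 (SD, n = 3). The exact permutation test gave p = 0.000649 and the same value after adjustment over 3 pairs. Among days 2, 6 and 10 alone, the exact test gave adjusted p of 0.00536 for both other pairs and 0.0357 for the eIF4G pair. TIF1 with TIF2 and EFT1 with EFT2 were not tested, since each pair had 1 probe set.

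**Figure D3:**
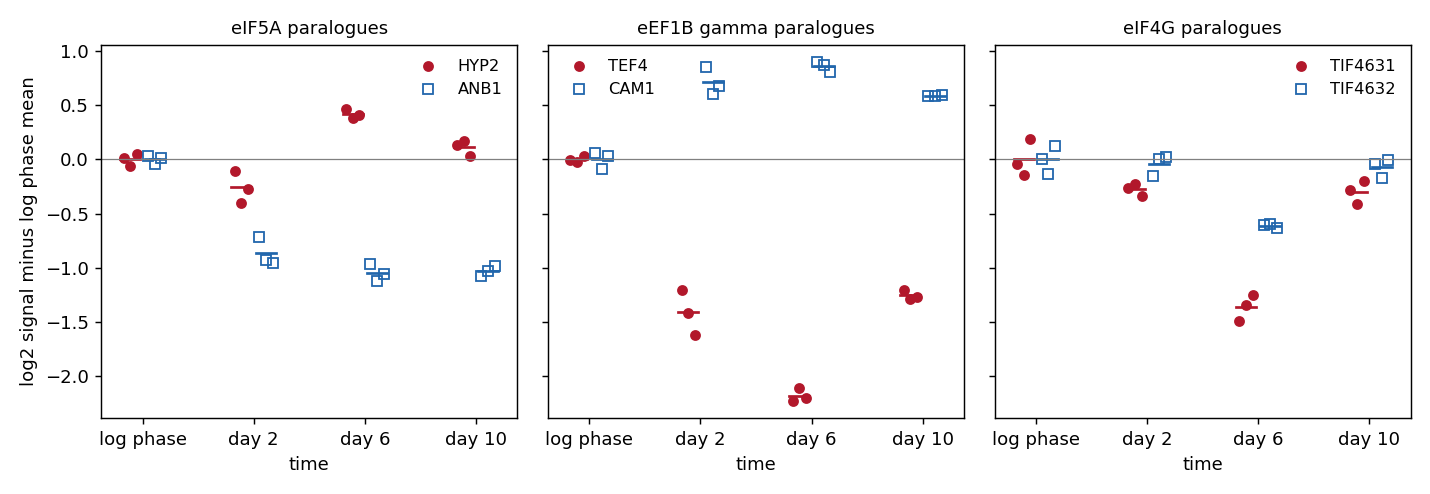
Each panel gives 1 pair of paralogues, with the log2 signal of every array minus the gene's log phase mean against time; points are arrays and bars are means of 3. TEF4 and CAM1 part in opposite directions, HYP2 stands above its log phase level on day 6 (below it, at -0.77, under the hybridisation controls) while ANB1 stays near -1, and TIF4631 falls further than TIF4632 on day 6.

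YEF3 encodes eEF3, an elongation factor that fungi need in addition to eEF1A and eEF2. It gave 11.48, 11.39 and 11.69 in log phase, 11.72, 11.67 and 11.64 on day 2, 10.77, 11.04 and 11.05 on day 6, and 12.31, 12.25 and 12.26 on day 10. Log phase and day 2 overlapped, day 6 was below all others and day 10 above all others. The rise from day 6 to day 10, 1.32 (SE 0.09, limma adjusted p = 8.0e-08), was the largest among the members. Against log phase YEF3 was at 0.75 on day 10, a value that turned to -0.22 under centring on the hybridisation controls. Without bioB that value was 0.11, and it was called under neither centring.

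EFT2 was at 0.13 (not called), -0.26 and 0.21 on days 2, 6 and 10. Its day 2 value turned to -0.30 (not called) under the hybridisation controls and was 0.36 and called under quantile normalization. Its day 6 value turned to 0.075 under quantile normalization and its day 10 value to -0.76 under the hybridisation controls. EFB1, the catalytic alpha subunit of eEF1B, was at -0.54, -0.57 and -0.26, and its day 10 value turned to 0.080 under quantile normalization. These 2 genes have bright probe sets whose small changes depended on the scaling.

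Termination is carried out by eRF1 (SUP45), which reads the stop codon, and eRF3 (SUP35), its GTPase. SUP45 gave 10.03, 10.02 and 10.10 in log phase, 9.54, 9.60 and 9.36 on day 2, 8.96, 9.14 and 9.26 on day 6, and 9.70, 9.69 and 9.79 on day 10, without overlap between times. It was at -0.55, -0.93 and -0.32 (SE 0.08). SUP35 was at -0.04 on day 2 (not called), -0.85 on day 6 and -0.22 on day 10. Both partners were thus lower on days 6 and 10, and only SUP45 was called on day 2.

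The 18 synthetase genes encode the enzymes for most amino acids, with both subunits of the phenylalanyl enzyme. On day 2, 16 were lower, DPS1 was higher and ALA1 was not called (median -0.68). On day 6, 17 were lower and ALA1 was not called (median -1.21), with 14 of them below -1. On day 10, 14 were lower, ALA1 and DPS1 were higher, and FRS2 and HTS1 were not called (median -0.46). Under the hybridisation-control centring all 18 were lower on days 6 and 10.

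TYS1, the tyrosyl-tRNA synthetase, changed most of them at each time. It gave 9.99, 10.01 and 10.14 in log phase, 8.61, 8.68 and 8.60 on day 2, 8.14, 8.18 and 8.05 on day 6, and 8.50, 8.33 and 8.49 on day 10. No times overlapped, and all later arrays were well under log phase. It fell by 1.42, 1.93 and 1.61 (SE 0.06, limma adjusted p at most 2.5e-10). The lowest synthetases after TYS1 were MES1 (methionyl, -1.39) and WRS1 (tryptophanyl, -1.38) on day 2, and FRS1 (-1.76) and MES1 (-1.71) on day 6.

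ALA1 and DPS1, for alanine and aspartate, were the exceptions. ALA1 gave 9.94, 9.88 and 10.08 in log phase, 10.04, 9.92 and 9.66 on day 2, 9.95, 9.81 and 10.02 on day 6, and 10.47, 10.30 and 10.40 on day 10. Its first 3 times overlapped and day 10 lay above them all. The day 10 change of 0.43 (SE 0.09, limma adjusted p = 0.00097) turned to -0.54 under centring on the hybridisation controls, and on day 6 ALA1 was called lower with the RNA integrity covariate (-0.34, adjusted p = 0.016).

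DPS1 gave 9.62, 9.44 and 9.65 in log phase, 9.75, 9.79 and 9.87 on day 2, 9.24, 9.31 and 9.25 on day 6, and 9.84, 9.81 and 9.81 on day 10. It was lowest on day 6 and overlapped between days 2 and 10. Its changes were 0.23, -0.30 and 0.25, the first and last becoming -0.19 (not called) and -0.72 under the hybridisation controls. Without bioB the day 2 and day 10 values were 0.18 (not called) and -0.39. ALA1, GRS1, HTS1 and VAS1 are known to serve mitochondria as well as the cytosol from 1 gene. The other 3 of these were at -1.04, -0.99 and -1.17 on day 6.

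The phenylalanyl enzyme has subunits from FRS1 (beta) and FRS2 (alpha). FRS1 was at -1.24, -1.76 and -0.88, and FRS2 at -0.66, -0.89 and -0.03 on days 2, 6 and 10. From day 6 to day 10, FRS1 rose by 0.87 and FRS2 by 0.86.

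GUS1, the glutamyl-tRNA synthetase, was singled out after its values were seen because it was not called higher after day 6. It gave 10.58, 10.52 and 10.63 in log phase, 10.20, 10.10 and 10.05 on day 2, 9.53, 9.51 and 9.51 on day 6, and 9.65, 9.66 and 9.58 on day 10. From day 6 to day 10 it changed by 0.12 (SE 0.06, limma adjusted p = 0.086). It was the only synthetase of the 18 not called higher in that interval, but with RNA integrity as a covariate it was called higher as well (0.23, limma adjusted p = 0.022). In yeast, Gus1 and Mes1 form a complex with the cofactor Arc1. MES1 rose by 0.86 and ARC1, which is not a member, by 0.31 in the same interval. GLN4 (glutaminyl) was noted for its spread: its day 2 arrays read 9.13, 8.56 and 8.35 (SD 0.40), the widest of any member at any time.

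Between days 2 and 6, 39 members were lower and HYP2 alone was higher, against 31.9% and 35.2% of all genes. The median member was at -0.42 and the median gene at 0.02. The lowest were TIF4631 (-1.08), PAB1 (-1.04) and CDC33 (-0.98), all of which act at the cap and tail of the mRNA. The highest were HYP2 (0.68, limma adjusted p = 3.1e-06), CAM1 (0.15, not called) and ALA1 (0.05, not called), and these 3 turned to -0.091, -0.62 and -0.71 under the hybridisation controls. Without the day 2 array that stood apart in RNA integrity, 35 members were lower and 2 higher. With RNA integrity as a covariate, 33 members were lower and none higher, against 792 and 844 of all 5449 genes. Days 2 and 6 did not overlap in RNA integrity, so this fit cannot fully separate it from time.

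From day 6 to day 10 the course reversed: 48 members were higher, 2 were lower, and ANB1 (0.02) and GUS1 were not called. Among all genes 28.8% were higher and 32.1% lower. The members' median was 0.67, against -0.02. All 25 measured initiation factors rose, by between 0.34 and 1.11. The largest rises were those of YEF3 (1.32), PAB1 (1.11) and TIF4631 (1.06).

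HYP2 (-0.30, limma adjusted p = 0.0025) and CAM1 (-0.27, limma adjusted p = 0.0029) fell from day 6 to day 10. Neither was called under the hybridisation controls (-0.08 and -0.05) or with RNA integrity as a covariate (-0.12 and -0.10). The 48 rises were also 48 under the hybridisation controls, where 1595 of all 5449 genes were higher. With the covariate 50 members were called higher, against 1362 of all genes.

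Day 10 against day 2 gave a smaller difference. There 25 members were higher, 4 were lower and 23 were not called, with 34.9% of all genes higher and 32.1% lower, and the members' median was 0.18. The 4 lower were GUS1 (-0.49), HCR1, TYS1 and SUP35 (between -0.22 and -0.18). Under centring on the hybridisation controls the direction turned, with 27 lower, none higher and a median of -0.37. Of all 5449 genes, 3685 were then lower and 271 higher. With RNA integrity as a covariate, 8 of the 52 members were higher and 5 lower, against 1297 and 1128 of all genes. Both of these shares of members were below those of all genes.

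**Figure D4:**
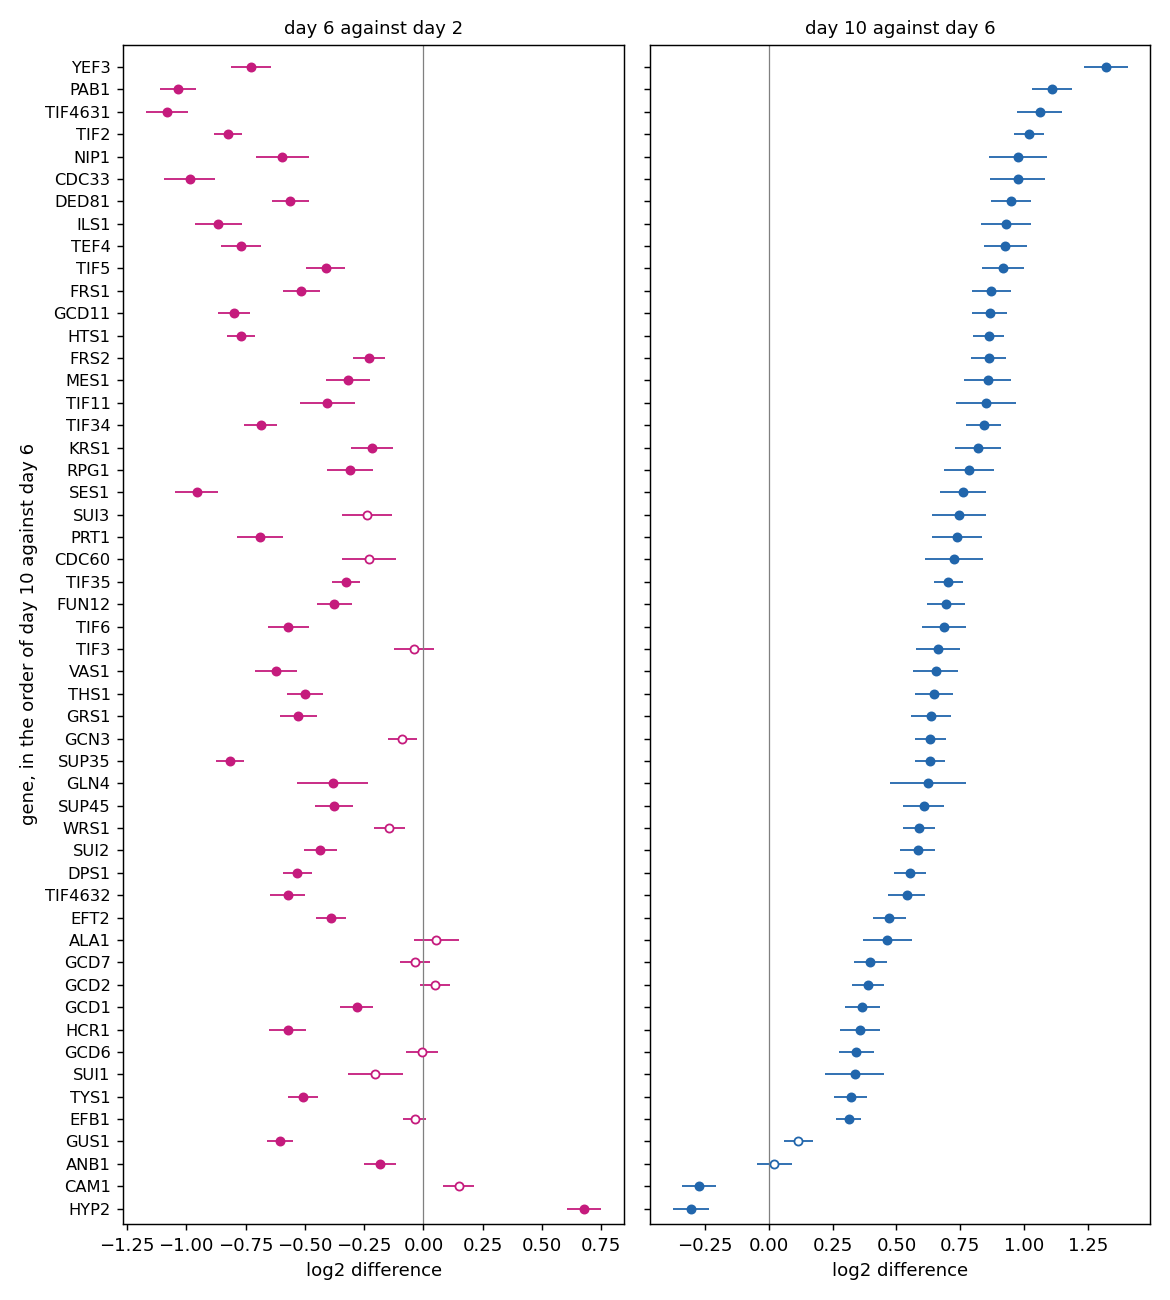
Points give the log2 difference of each of the 52 measured members for day 6 against day 2 (left) and day 10 against day 6 (right), with bars for the SE; filled points were called, open points were not. Most members lie below 0 on the left and above 0 on the right, and HYP2 and CAM1 are the 2 filled points below 0 on the right.

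The 3 day 6 arrays lay below the other 9 without overlap for 36 members, and for 12.5% of all genes. For 38 members the 3 log phase arrays lay above the other 9, against 29.8% of all genes. These members kept a lower signal through day 10, among them all subunits of eIF3 and eIF2. CAM1 was the only member whose log phase arrays were below the other 9, which held for 1645 of all 5449 genes. Gene length was weakly related to the change over genes, which are not independent replicates: Spearman's rho was 0.27, 0.09 and 0.27 over the 52 members on days 2, 6 and 10, and 0.24, 0.22 and 0.25 over all genes.

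Other genes of the pathway were examined in lists. Of 8 further elongation, recycling and rescue factors, 7 were measured: on day 6, 4 were lower and 2 higher than in log phase, and 6 were lower and 1 higher under centring on the hybridisation controls. HEF3 encodes a paralogue of eEF3. It gave 6.50, 6.44 and 6.56 in log phase, 8.26, 8.09 and 8.26 on day 2, 9.73, 10.14 and 10.01 on day 6, and 8.15, 8.58 and 8.04 on day 10. All later arrays were above log phase, and day 6 was above the rest, where its paralogue YEF3 was lowest.

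HEF3 rose by 1.70, 3.46 and 1.76 (SE 0.13, limma adjusted p at most 2.8e-08), and by 1.28, 2.27 and 0.79 under the hybridisation controls. Whether the probes of HEF3 and YEF3 hybridise to each other's transcripts was not tested. RLI1, the ribosome-recycling ATPase, fell by 1.36, 2.17 and 1.05 (SE 0.09).

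Both initiation helicases were measured. DBP1, a stress-related paralogue of DED1, was below the background in log phase, and its signal was at least 2.98-fold higher on day 2, 3.68-fold on day 6 and 2.29-fold on day 10 on the deposited scale. These bounds do not carry over to the hybridisation controls, under which its log2 differences were 1.33, 0.87 and 0.41, all called. DED1 was at 0.29, 0.13 (not called) and 0.93, which became -0.13, -1.06 and -0.040 under the hybridisation controls, of which only the day 6 value was called. Without bioB they were 0.25, -0.73 and 0.29, again with only the day 6 value called.

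Of 7 repressors and genes of the Gcn2 pathway, 4 were lower and 3 higher on days 2 and 6, and 4 were lower and 2 higher on day 10. Under centring on the hybridisation controls 4, 7 and 6 were lower on days 2, 6 and 10, and 1 was higher, on day 2. CAF20, which encodes an eIF4E-binding repressor, fell by 1.76, 2.04 and 1.37 (SE 0.09, limma adjusted p at most 7.5e-09). STM1, a ribosome-bound protein linked to ribosome preservation, was at -0.63, -1.72 and -0.61, lowest on day 6 like most members. GCN4, the activator of amino acid biosynthesis genes, was at 0.78, 0.81 and 1.12. Under the hybridisation controls it was at 0.36 on day 2 (limma adjusted p = 0.041), turned to a called decrease on day 6 (-0.38, limma adjusted p = 0.024), and was at 0.15 and not called on day 10. Without bioB it was at 0.74 and called on day 2, -0.049 and not called on day 6, and 0.48 and called on day 10. GCN4 is mainly controlled at its translation, which the arrays do not measure.

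The enzymes that modify eIF5A (hypusine, DYS1 and LIA1) and eEF2 (diphthamide, the DPH genes) were lower for 6 of 6 genes on days 2 and 6 and 5 of 6 on day 10. Their medians were -1.37, -1.59 and -0.68. LIA1 fell by 1.67 and 1.85 on days 2 and 6, DYS1 by 1.65 and 1.74. DPH5 was at -1.17, -1.89 and -1.34. The genes named here were among the lowest, and the 6 ranged from -1.89 to -0.47 on day 6. From day 2 to day 6, 1 was lower, 2 were higher and 3 were not called. All 6 were lower than in log phase on day 6, when HYP2 was higher on the deposited scale but lower under the hybridisation controls.

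Of the remaining cytosolic synthetase genes, 3 of 4 were measured (YDR341C, YHR020W and the cofactor ARC1), and all 3 were lower at each later time, with medians of -0.86, -1.45 and -0.38. ARC1 was at -1.05, -1.45 and -1.14. YHR020W was at -1.47 on day 6 and YDR341C at -0.86 on day 2.

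Mitochondria hold their own synthetases and factors. The 14 mitochondrial synthetase genes had 10 lower and 1 higher on day 2, 8 lower and 2 higher on day 6, and 11 lower on day 10, with medians of -0.38, -0.19 and -0.40. Under the hybridisation controls 11, 14 and 14 were lower and none was higher. From day 6 to day 10, 8 were lower and none higher, a median of -0.18 that became 0.04 with none called under the hybridisation controls. The largest changes were those of MSE1 (-0.77 on day 2), MSW1 (-0.57 on day 6) and MSM1 (-0.67 on day 10).

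The 7 mitochondrial translation factors had 6 lower and 1 higher on days 2 and 10, and 2 lower and 3 higher on day 6. Under the hybridisation controls 6 were lower and none higher at each of these times, when most of all genes were lower too. From day 6 to day 10, 6 were lower (median -0.45) and 1 was lower under the hybridisation controls (median -0.23). MEF2, a mitochondrial relative of elongation factor G, was at 0.58, 1.37 and 0.87, which became 0.16, 0.18 and -0.096 under that centring, none of them called. Without bioB they were 0.53, 0.52 and 0.23, of which those of days 2 and 6 were called. RRF1, the mitochondrial ribosome recycling factor, was at -0.79 on day 2 and -0.89 on day 10.

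**Figure D5:**
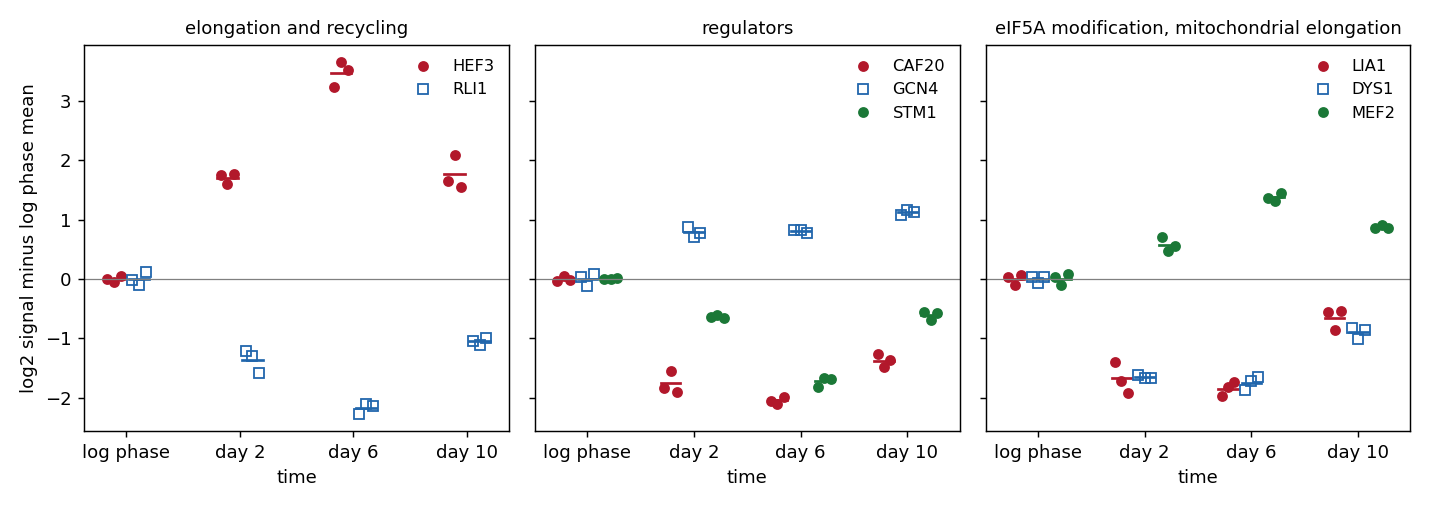
Log2 signal of each array minus the log phase mean against time for 8 genes of the pathway that are not members: factors of elongation and recycling (left), regulators (middle), and modification enzymes of eIF5A with a mitochondrial factor (right). HEF3 stands near 3.5 above log phase on day 6, and RLI1 and CAF20 near -2. MEF2 stands above its log phase mean on all later arrays on the deposited scale. Its day 10 mean is at -0.096 under centring on the hybridisation controls and at 0.23 without bioB.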

How the data were processed

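Gene expression was measured on 12 Affymetrix arrays from 4 times, 3 each. The values are log2 probe set signals that the authors deposited, summarised by PLIER according to the submitters' processing notes. The sources used here do not give its version, its background step or how arrays were normalized, and the log2 scale was inferred from the range of the values. Of 10928 probe sets, 5498 mapped through the platform annotation to 5449 S. cerevisiae genes. Symbols were updated for 12 of them from RefSeq's table for the reference strain S288C, which is not the strain studied. For 47 genes with several probe sets, the one with the highest mean was used. The 95th percentile of 1746 probe sets of another yeast species was the background, and a fold against a group below it is a lower bound.

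A limma 3.58.1 model (R 4.3.3) with a coefficient per time was fitted to all genes and all 12 arrays, with 8 residual degrees of freedom and a prior standard deviation of 0.0867. P-values were adjusted over all genes by the Benjamini-Hochberg method within each contrast or F test, and genes were called at 0.05. The number of arrays limits the precision. The fit and the permutation test were tested on simulated data. Paralogue pairs were compared by an exact permutation test (numpy 2.4.6) of the between-time F statistic of their difference per array.

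The members, the pathway lists and the tests were chosen with earlier results of these data known. Every member could be named. Values on every array are given for the paralogue pairs, for the 3 lowest and 3 highest members of each contrast against log phase, and for the largest change of each role. From each pathway list up to 2 called genes per contrast against log phase, those with the largest change, were eligible, and a gene so chosen could be given at all times. TEF1 and YNL247W of these lists had no probe set of their own.

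The alternatives were quantile normalization, centring on the median or on hybridisation controls (27 probe sets, or 18 without bioB), a filter on dim genes, averaging several probe sets of a gene, robust and trended priors, fits to only the 6 arrays compared, a replicate block, RNA integrity as a covariate, an offset of 16 on the linear scale, and each array left out in turn. Same-numbered arrays did not deviate together: the correlations of 18 such pairs ran from -0.29 to 0.39, so the numbers were not taken to pair the samples. A planned search for promoter motifs was not run, and no coordinates or sequences are given, since no genome was used here.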

Additional observations from a re-analysis of the deposited data

How the results depend on the processing

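The counts of members lower than in log phase on days 2, 6 and 10, lower on day 6 than on day 2, and higher on day 10 than on day 6 stayed within 1.5 times under all 23 alternatives. They were 44, 49, 39, 39 and 48 of the 52 measured members, so none could have risen by 1.5 times. Only a fall could have passed this limit. It thus said little under centring on the hybridisation controls, which moved the median gene in the direction counted. Leaving aside day 10 against day 2, 234 of 260 member estimates were called. Of the 260, 18 turned direction and were called before or after the turn under centring on the hybridisation controls, 14 under the same without bioB and 3 under quantile normalization. None turned in this sense under the other alternatives run. Signs of estimates called neither before nor after also turned: 2 under the hybridisation controls (YEF3 at -0.26 and EFT2 at -0.30 on day 2), 4 under quantile normalization, 1 under median centring and 5 with the integrity covariate. The last included ALA1 on day 2 (0.20) and, for day 6 against day 2, CAM1 (-0.23) and ALA1 (-0.54). For day 10 against day 2, 37 members turned with a call under the hybridisation controls, and 2, PRT1 and GLN4, with the covariate. No sign turned under the replicate block, which gave 38 in place of 39 members lower on day 6 than on day 2, 5 in place of 4 lower on day 10 than on day 2, and changed no other count of members in the 6 contrasts. The cause of these shifts was not tested. With few arrays and a floor on the scale, small changes of dim genes are the least certain.

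The counts that moved were small or followed the centring. Members higher on day 2 than in log phase, 3 as reported, were 5 under quantile normalization, 0 and 1 under the hybridisation controls with and without bioB, 1 with the integrity covariate, and 3 to 5 with 1 array left out, 5 without log phase replicate 3. Members higher on day 6, 2 as reported, were 0 under both centrings and 1 with the covariate. Those higher on day 10, 7 as reported, were 0 under both centrings. Members higher on day 6 than on day 2, 1 as reported, were 3 under quantile normalization, 0 under both centrings and the covariate, and 1 to 2 with 1 array left out, 2 without day 2 replicate 1. Members lower on day 10 than on day 6, 2 as reported, were 0 under both centrings and the covariate. On day 10 against day 2, members lower were 27 and 28 under both centrings and 2 to 5 with 1 array left out, 2 without day 10 replicate 2. Members higher were 0 under both centrings and 8 with the covariate. The members' median there became -0.37 and -0.42, and that of all genes -0.52 and -0.57.

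Against log phase, centring on the hybridisation controls turned PAB1 (-0.11) and DPS1 (-0.19) on day 2, and CAM1 (-0.33) and HYP2 (-0.77, and -0.44 without bioB) on day 6. The turned values of PAB1, DPS1 and CAM1 were not called. Without bioB these genes did not turn, at 0.26, 0.18 and 0.0043, and were not called. On day 10 the values with and without bioB were -0.94 and -0.61 for TIF2, -0.72 and -0.39 for TIF3, -0.59 and -0.26 for PAB1, -0.91 and -0.58 for GCD2, -0.38 and -0.058 for CAM1, -0.76 and -0.43 for EFT2, -0.86 and -0.53 for HYP2, -0.54 and -0.22 for ALA1, and -0.72 and -0.39 for DPS1. YEF3 was at -0.22 with bioB and at 0.11 without it, neither called. For day 6 against day 2 they were -0.72 and -0.76 for GCD2, -0.62 and -0.66 for CAM1, -0.091 and -0.13 for HYP2, and -0.71 and -0.75 for ALA1. Quantile normalization turned EFT2 on day 6 (0.075), EFB1 on day 10 (0.080) and EFB1 for day 6 against day 2 (0.13). Among the other genes of the pathway that the text names, DED1 turned on days 2 (-0.13), 6 (-1.06) and 10 (-0.040), GCN4 on day 6 (-0.38) and MEF2 on day 10 (-0.096) against log phase under the hybridisation controls. Without bioB, DED1 was at 0.25, -0.73 and 0.29 on these days, of which only day 6 was called. GCN4 was then at -0.049 on day 6 and MEF2 at 0.23 on day 10, neither called.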
